A study of Mus musculus with 6 samples.

Results

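The primary, or azurophil, granules of neutrophils were described here through 10 genes of 27761 in the deposited expression table: Mpo, Elane, Prtn3, Ctsg, Prss57, Ctsc, Cst7, Srgn, Serpinb1a and Ms4a3. They were taken by gene symbol, and each symbol had 1 row. The 6 libraries hold messenger RNA of mouse bone marrow B220+ cells, the fraction that carries the B220 form of CD45, found on B lineage cells and on plasmacytoid dendritic cells. There were 3 libraries whose genotype label reads PELI2 knockout (CKO in their titles), called knockout-labelled here, and 3 labelled WT. Strain, age, the allele, any Cre driver and the number of animals behind a library are not given in the sources used here, so p-values measure only the spread between these libraries, which may be technical. Values are FPKM, reads per kilobase of transcript and per 1000000 mapped reads, so levels of different genes can be set side by side. The steps between low values placed the depth at 16600000 to 18100000 reads per library.

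Primary granules form at the promyelocyte stage, before the secondary and tertiary granules of later neutrophil precursors, and the messages of their proteins decline once that stage has passed. They hold myeloperoxidase and a set of serine proteases that are made as inactive precursors, trimmed by cathepsin C and packed on the proteoglycan serglycin. Transcription of these genes is known to depend on C/EBP factors, PU.1, MYB and RUNX1. B lineage cells are not known as a source of myeloperoxidase or of these proteases.

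The label of the knockout was checked first. Peli2, a Pellino E3 ubiquitin ligase, stood at 3.07, 2.70 and 2.47 FPKM in the knockout-labelled libraries, against 2.03, 2.54 and 1.99 FPKM in those labelled WT. The groups overlapped, and the means differed by 0.556 FPKM (exact permutation test, two-sided, p = 0.2), a test that cannot go below 0.1 with 3 against 3 libraries. The FPKM of Peli2 was therefore not lower under the knockout label. A value per gene cannot show the deletion of an exon, so it does not decide whether the label holds. Each direction given here follows the label. Its relatives were also present (SD, n = 3 each). Peli3 stood at 0.0848 ± 0.0205 FPKM in knockout-labelled libraries, against 0.102 ± 0.00980 FPKM in WT. Peli1 stood at 14.8 ± 0.575 FPKM in knockout-labelled libraries, against 17.4 ± 0.580 FPKM in WT (exact permutation test, two-sided, p = 0.1, and limma, adjusted p = 0.153). The groups of Peli1 were apart, lower under the knockout label, as were 14.3% of all genes tested. All 10 B lineage markers passed the filter on low values (1 FPKM in 3 or more libraries). This cannot show how pure the labelled cell type was, since all 9 secondary and tertiary granule genes and all 7 erythroid genes passed it as well. WT replicate 1 stood apart from the other WT libraries, with the lowest value of all 10 primary granule genes.

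The members were chosen by their FPKM in these 6 libraries, with their difference between the groups already known, so their folds are a description and carry no test. Shown first are the stretches upstream of the 4 members with the largest differences on the log2(FPKM + 1) scale. By ratio of means Ms4a3 (2.54) stood above Elane (2.47), so the choice of 4 depends on the scale. Each is the part of RefSeq's 250 bases before the transcription start (GRCm38.p6) that lies outside every exon of GENCODE M21, given 5′ to 3′ on the gene's strand. Capitals mark GAGGAA, the PU.1 type of motif, AACTG, a MYB type, and TGTGGT, a RUNX type, on either strand. The Mpo stretch lies at chr11:87793534-87793580, plus strand, Elane at chr10:79886062-79886246, plus strand, Prtn3 at chr10:79879417-79879613, plus strand, and Ctsg at chr14:56102575-56102824, minus strand.
Mpo: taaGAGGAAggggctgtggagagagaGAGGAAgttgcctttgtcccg
Elane: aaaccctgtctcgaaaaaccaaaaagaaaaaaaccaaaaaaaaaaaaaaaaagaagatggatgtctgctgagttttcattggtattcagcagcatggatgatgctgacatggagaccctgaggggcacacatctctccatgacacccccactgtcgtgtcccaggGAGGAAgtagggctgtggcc
Prtn3: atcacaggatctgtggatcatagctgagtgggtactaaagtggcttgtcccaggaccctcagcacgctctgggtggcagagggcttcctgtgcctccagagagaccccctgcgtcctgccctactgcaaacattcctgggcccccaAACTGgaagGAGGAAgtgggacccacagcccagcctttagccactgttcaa
Ctsg: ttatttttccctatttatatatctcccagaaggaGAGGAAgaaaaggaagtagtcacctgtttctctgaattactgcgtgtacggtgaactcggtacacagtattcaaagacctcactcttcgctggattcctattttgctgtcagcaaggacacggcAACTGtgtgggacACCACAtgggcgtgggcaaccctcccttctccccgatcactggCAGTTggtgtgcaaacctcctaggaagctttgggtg
Each of the 4 stretches holds GAGGAA, Mpo in 2 places, whereas the stretch of Ms4a3, not printed, holds none of the marked motifs. In the full windows, from 250 bases before to 50 after the start, 8 members have an entry, and Prss57 and Serpinb1a have none. Srgn has 2 windows, of which the upstream one was counted. GAGGAA was found in 6 of these 8 windows (Mpo, Elane, Prtn3, Ctsg, Ctsc and Ms4a3), against 28.3% of all 32851 windows. AACTG was found in 5 of the 8, against 44.8% of all windows. TGTGGT was found in 2 of the 8 (Cst7 and Ctsg), against 16.8%, and the Srgn window that was not counted also holds it. TTGCNNAA, the C/EBP type of motif, was found in 2 of the 8 (Cst7 and Ms4a3), against 10.8%. With the 250 bases before the start alone, GAGGAA was found in 5 of the 8 counted windows, against 23.3% of all windows. Over the same 250 bases AACTG was found in 5, against 39.1%, TGTGGT in 2, against 14.05%, and TTGCNNAA in 0, against 9.56%. No 2 of these motifs overlapped in the printed stretches, and a match is a run of letters, not a shown binding site.

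All 10 genes had a higher mean in the knockout-labelled libraries, and for each of them the lowest of these 3 libraries stood above the highest WT library. All 10 passed the same filter, as did 12953 genes in all, of which 11.5% were apart in that direction and 46.4% had a higher mean there. The median log2 fold change of the 10 members was 1.03 on the log2(FPKM + 1) scale, against -0.01 over all genes tested. Summed over the 10 members, the level was 1120.5, 1239 and 1058 FPKM in the knockout-labelled libraries, against 434, 609 and 595 FPKM in WT. In these sums Mpo, Elane, Prtn3 and Ctsg held 821, 929 and 746 FPKM in the knockout-labelled libraries and 225, 363 and 348 FPKM in WT, while the other 6 genes held 299, 309 and 312 FPKM in the knockout-labelled libraries and 209, 246 and 247 FPKM in WT. In bulk RNA, more cells of a type and more RNA per cell cannot be told apart.

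Myeloperoxidase, the heme enzyme that makes hypochlorous acid, and its companion proteases showed the largest differences. Mpo (ENSMUSG00000009350, chromosome 11, 87793581 to 87804413) stood at 246, 265 and 226 FPKM in the knockout-labelled libraries, against 70.5, 110.4 and 107 FPKM in WT. Its means of 245 ± 19.5 FPKM in the knockout-labelled libraries and 96.1 ± 22.2 FPKM in WT (SD, n = 3 each) gave a ratio of 2.55. The lowest knockout-labelled library was 2.04 times the highest WT library.

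Elane, neutrophil elastase (ENSMUSG00000020125, chromosome 10, 79886247 to 79888215), stood at 285, 341 and 305 FPKM in the knockout-labelled libraries, against 89.0, 147 and 142 FPKM in WT, a ratio of means of 2.47. It was the member with the highest level in each knockout-labelled library, where only 95 to 132 of the 27761 rows had a higher FPKM. Prtn3, proteinase 3 (ENSMUSG00000057729, chromosome 10, 79874476 to 79883174), stood at 179.6, 195 and 132 FPKM in the knockout-labelled libraries, against 41.4, 66.6 and 62.2 FPKM in WT, a ratio of 2.98. Ctsg, cathepsin G (ENSMUSG00000040314, chromosome 14, 56099881 to 56102574), stood at 110.4, 128 and 83.4 FPKM in the knockout-labelled libraries, against 24.6, 39.4 and 36.7 FPKM in WT, a ratio of 3.19, the largest of the 10. Prtn3 and Ctsg were both lowest, within the knockout-labelled libraries, in replicate 3.

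Prss57, a further serine protease of these granules (ENSMUSG00000020323, chromosome 10, 79781474 to 79790961), was the member at the lowest level. It stood at 6.14, 6.62 and 5.36 FPKM in the knockout-labelled libraries, against 2.26, 3.81 and 3.90 FPKM in WT, a ratio of 1.82. The groups were apart, with the lowest knockout-labelled library at 1.37 times the highest WT library.

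**Figure D1:**
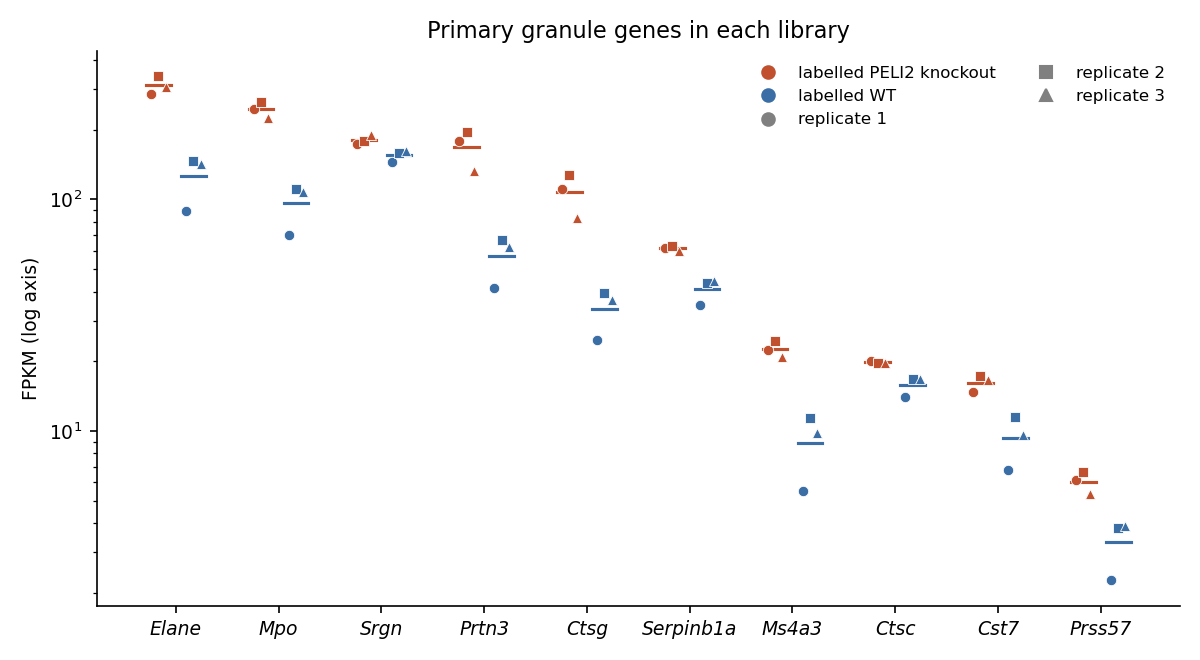
FPKM (log axis) of the 10 primary granule genes, ordered by their mean in the knockout-labelled libraries; each point is 1 library, its shape gives the replicate number, and the bar is the group mean. The 3 knockout-labelled libraries stand above the 3 WT libraries for every gene, by the widest margin for Ctsg and the narrowest for Srgn, and WT replicate 1 is the lowest point of each gene.

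The genes that process and pack the proteases differed less. Ctsc, cathepsin C, which removes the propeptide of the serine proteases (ENSMUSG00000030560, chromosome 7, 88278085 to 88310888), stood at 20.01, 19.7 and 19.6 FPKM in the knockout-labelled libraries, against 14.1, 16.7 and 16.8 FPKM in WT, a ratio of 1.25. Srgn, serglycin, whose loss in mice empties these granules of elastase (ENSMUSG00000020077, chromosome 10, 62493833 to 62527451), stood at 174, 178 and 189.6 FPKM in the knockout-labelled libraries, against 145, 159 and 162 FPKM in WT. Its ratio of 1.16 was the smallest of the 10, and the lowest knockout-labelled library was 1.07 times the highest WT library. Both genes are also used by lymphocytes, mast cells and other blood cells.

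By ratio of means, the inhibitors lay between these sets. Serpinb1a, a serpin that blocks elastase, cathepsin G and proteinase 3 (ENSMUSG00000044734, chromosome 13, 32842092 to 32851185), stood at 61.7, 63.2 and 59.6 FPKM in the knockout-labelled libraries, against 35.2, 43.4 and 44.6 FPKM in WT, a ratio of 1.499. Its close copy Serpinb1c was listed at 0 in 5 of 6 libraries, and Serpinb1b was not analysed here. Cst7, cystatin F, an inhibitor of cysteine cathepsins (ENSMUSG00000068129, chromosome 2, 150570415 to 150578944), stood at 14.8, 17.2 and 16.6 FPKM in the knockout-labelled libraries, against 6.81, 11.5 and 9.64 FPKM in WT, a ratio of 1.74. Ms4a3, a membrane protein used to trace granulocyte and monocyte progenitors in mice (ENSMUSG00000024681, chromosome 19, 11629496 to 11640851), stood at 22.4, 24.5 and 20.8 FPKM in the knockout-labelled libraries, against 5.51, 11.3 and 9.79 FPKM in WT. Its ratio of 2.54 placed it beside Mpo and Elane rather than beside the inhibitors.

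On the log2(FPKM + 1) scale the differences spanned a wide range, with 1.65 for Ctsg, 1.57 for Prtn3, 1.37 for Mpo, 1.33 for Elane and 1.30 for Ms4a3 at the upper end. Cst7 followed at 0.76, Prss57 at 0.72, Serpinb1a at 0.58, Ctsc at 0.31 and Srgn at 0.22. Among all 12953 genes tested, 9 had a larger log2 fold change than Ctsg and 20 a larger one than Ms4a3, while 1604 had a larger one than Srgn. The lowest value of any member in any library, 2.26 FPKM for Prss57, stands for about 18.6 to 107 reads, depending on which of its transcripts was read. Leaving out WT replicate 1 moved the median log2 fold change of the members most, to 0.80, whereas it was 1.18 without WT replicate 2. Without WT replicate 1 the ratios were 2.25 for Mpo, 2.15 for Elane, 2.62 for Prtn3, 2.82 for Ctsg and 2.14 for Ms4a3.

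**Figure D2:**
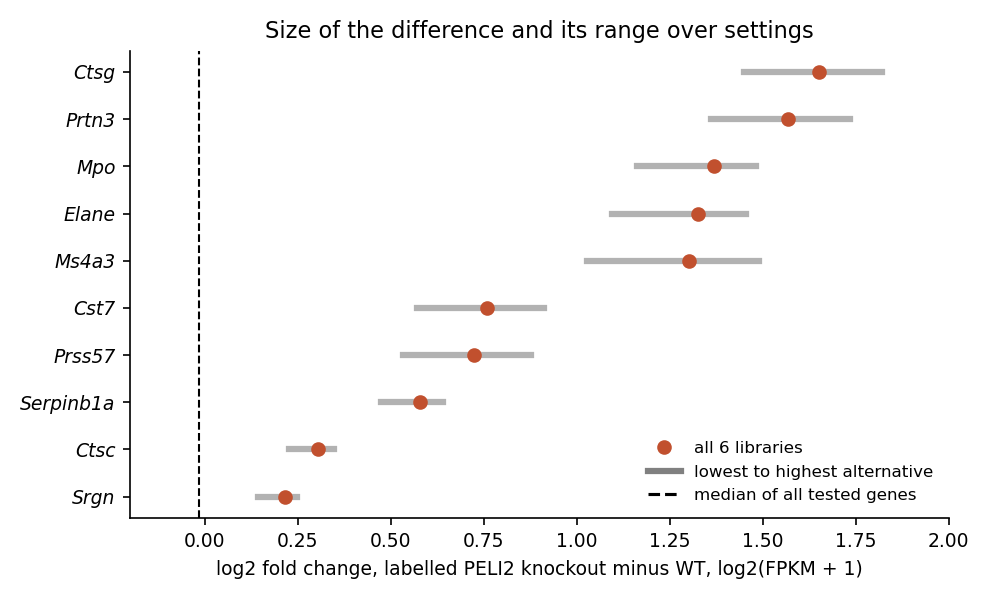
Log2 fold change of each member, knockout-labelled libraries minus WT, on the log2(FPKM + 1) scale; points are the values with all 6 libraries, grey bars run from the lowest to the highest value over the alternative settings, and the dashed line is the median of all genes tested. The bars of Ctsg, Prtn3, Mpo, Elane and Ms4a3 lie above 1, and those of Ctsc and Srgn lie closest to 0.

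The order of the levels differed between the groups. In the knockout-labelled libraries the order by mean FPKM was Elane, Mpo, Srgn, Prtn3, Ctsg, Serpinb1a, Ms4a3, Ctsc, Cst7 and Prss57, and Srgn and Prtn3 were the only neighbours whose ranges overlapped there. In WT the order was Srgn, Elane, Mpo, Prtn3, Serpinb1a, Ctsg, Ctsc, Cst7, Ms4a3 and Prss57. Neighbours with overlapping ranges in WT were Srgn and Elane, Elane and Mpo, Prtn3 and Serpinb1a, Serpinb1a and Ctsg, and Cst7 and Ms4a3. Serglycin thus had the highest FPKM of the 10 in each WT library and ranked 3 or 4 in each knockout-labelled library.

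The proportions among the members were then compared within each library. The ratio of Elane to Mpo was 1.16, 1.29 and 1.35 in the knockout-labelled libraries, against 1.26, 1.33 and 1.32 in WT, and the groups overlapped. Over all 6 libraries this ratio varied 1.16-fold from lowest to highest, while Mpo itself varied 3.76-fold. The ratio of Ms4a3 to Mpo also overlapped, at 0.0910, 0.0926 and 0.0922 in the knockout-labelled libraries, against 0.0782, 0.103 and 0.0911 in WT. The ratio of Ctsg to Prtn3, genes on different chromosomes, was 0.615, 0.656 and 0.630 in the knockout-labelled libraries and 0.595, 0.591 and 0.590 in WT. Its groups were apart, higher in the knockout-labelled libraries, within a 1.11-fold range over all 6 libraries.

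Other proportions differed more. Ctsg stood at 0.449, 0.483 and 0.369 of Mpo in the knockout-labelled libraries, against 0.350, 0.357 and 0.342 in WT. Prss57 stood at 0.0249, 0.0250 and 0.0237 of Mpo in the knockout-labelled libraries, against 0.0321, 0.0345 and 0.0363 in WT. The Prss57 fraction was thus lower, and the Ctsg fraction higher, in each knockout-labelled library than in each WT library. Srgn stood at 0.708, 0.673 and 0.840 of Mpo in the knockout-labelled libraries, against 2.06, 1.44 and 1.51 in WT. The inhibitor Serpinb1a stood at 0.216, 0.185 and 0.196 of its target Elane in the knockout-labelled libraries, against 0.395, 0.295 and 0.314 in WT. The groups were apart in both of these ratios, lower in the knockout-labelled libraries. Ctsc, Cst7 and Serpinb1a relative to Mpo were likewise lower in each knockout-labelled library than in each WT library, and Prtn3 to Mpo overlapped. Among all 12953 genes tested, only 15 had a larger log2 fold change than Mpo and 18 a larger one than Elane. A gene with a smaller fold than its divisor tends to a lower ratio, so these ratios restate the folds given above.

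**Figure D3:**
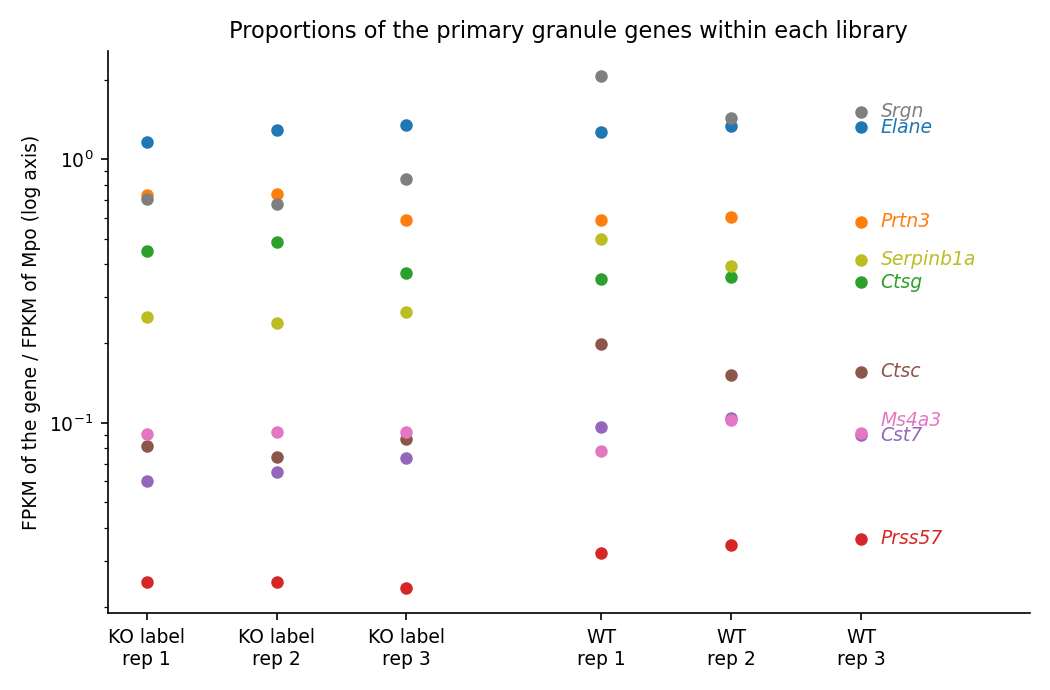
FPKM of each of the other 9 members divided by the FPKM of Mpo in the same library (log axis), for replicates 1 to 3 of the knockout-labelled libraries on the left and of WT on the right. Elane and Ms4a3 stay at similar fractions of Mpo in all 6 libraries, whereas Srgn is below 1 in each knockout-labelled library and above 1 in each WT library.

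Within each group the members mostly shared their high and low libraries, a comparison that does not use the difference between the groups. WT replicate 1 was the lowest WT library for all 10, with Mpo at 0.647 and Ms4a3 at 0.522 of the mean of the other 2, but Srgn at 0.904. This was not particular to the members. The same library was lowest in WT for all tested erythroid (7), monocyte (7), lysosomal (10) and basophil, mast cell and eosinophil (9) genes. It was lowest for 5 of 11 transcription factors and for 1 of 10 B lineage markers. Among the knockout-labelled libraries, replicate 3 was lowest for 7 of the 10 and replicate 2 highest for 8 of the 10. With the group means removed, the correlation of log2(FPKM + 1) with Mpo over the 6 libraries was 0.993 for Prss57, 0.987 for Ms4a3, 0.9846 for Serpinb1a, 0.962 for Elane and 0.605 for Srgn. These points share their libraries and depth, and WT replicate 1 lay farthest from its group mean, by a median of -0.39 over the members on the log2(FPKM + 1) scale.

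Genes of later neutrophil stages did not have the same order among the knockout-labelled libraries. All 7 mature neutrophil genes tested were lowest in replicate 1, and 6 of the 7 were highest in replicate 3, where most primary granule genes were lowest. This order was not particular to later neutrophil stages. Of 12 genes of granulocyte and monocyte progenitors, 7 were lowest in replicate 1 and 2 in replicate 3. All 9 basophil, mast cell and eosinophil genes tested were highest in replicate 3, while 4 of 7 monocyte genes were lowest there. S100a8, a subunit of the alarmin calprotectin, stood at 2902, 3169 and 3574 FPKM in the knockout-labelled libraries, against 1829, 2563 and 2410 FPKM in WT. Retnlg stood at 390.1, 456 and 606 FPKM in the knockout-labelled libraries, against 379, 481 and 525 FPKM in WT. Ly6g, the surface marker of mouse neutrophils, stood at 27.5, 33.8 and 48.2 FPKM in the knockout-labelled libraries, against 29.1, 31.0 and 38.7 FPKM in WT. Retnlg and Ly6g were chosen after their values were seen, and their groups overlapped. The summed FPKM of Mpo, Elane, Prtn3 and Ctsg was 0.107, 0.112 and 0.0827 of the summed FPKM of the mature neutrophil list in the knockout-labelled libraries, against 0.0448, 0.0517 and 0.0522 in WT. Relative to the secondary and tertiary granule list the same sum was 0.192, 0.201 and 0.141 in the knockout-labelled libraries, against 0.0784, 0.0937 and 0.0921 in WT. These 4 genes were chosen with their large difference known, so higher ratios follow from that choice. They were not particular to neutrophil lists. Relative to the erythroid list the sum was 0.0720, 0.0697 and 0.0517 in the knockout-labelled libraries, against 0.0291, 0.0311 and 0.0339 in WT.

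**Figure D4:**
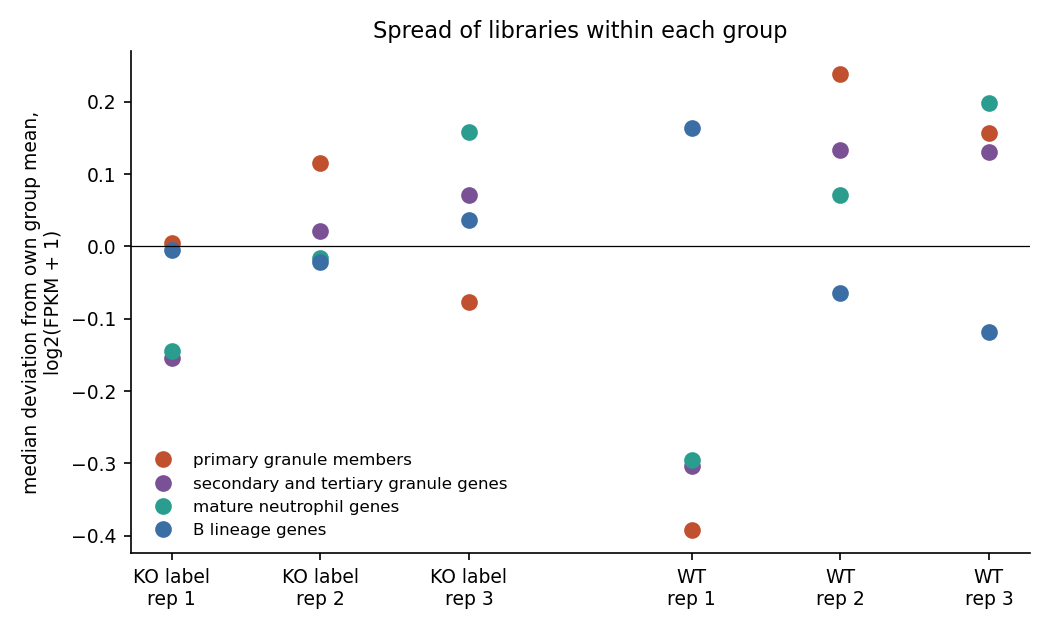
Median deviation of each gene list from its own group mean, on the log2(FPKM + 1) scale, by library, with the knockout-labelled libraries on the left and WT on the right. In the knockout-labelled libraries, replicate 3 has the lowest point of the primary granule genes and the highest point of the mature neutrophil genes, and in WT replicate 1 all 3 neutrophil lists are low and the B lineage genes are high.

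Genes on 16 lists, of the granulocyte programme, of other marrow cells and of the neighbourhood of the proteases, were compared in the fit over all genes. Of 131 tested genes on these lists, 0 reached an adjusted p under 0.05 (limma), where 0.0232% of all genes tested did, 59 stood higher and 11 stood lower by unadjusted p at the same threshold, where 9.2% of all genes tested were higher and 8.88% lower. All 11 transcription factors of the list were expressed, and at an unadjusted p under 0.05 there were 6 higher and 3 lower, the median log2 difference being 0.17, or 0.10 at a common total. Cebpa, the C/EBP factor needed to enter the granulocyte lineage, stood at 24.8, 22.4 and 23.1 FPKM in the knockout-labelled libraries, against 12.1, 15.3 and 16.0 FPKM in WT (limma, adjusted p = 0.121). Cebpe, which acts later, on secondary granule genes, stood at 43.6, 40.7 and 52.5 FPKM in the knockout-labelled libraries, against 27.1, 35.8 and 37.1 FPKM in WT (limma, adjusted p = 0.21). Spi1, which encodes PU.1 and is also used by B cells, stood at 59.5, 62.6 and 59.8 FPKM in the knockout-labelled libraries, against 54.0, 52.7 and 54.7 FPKM in WT.

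Other factors of the same list stood lower under the knockout label. Myb stood at 57.1, 58.6 and 51.2 FPKM in the knockout-labelled libraries, against 78.5, 64.6 and 62.9 FPKM in WT, and the groups were apart. Gfi1, a repressor that promyelocytes need, stood at 16.9, 16.3 and 15.3 FPKM in the knockout-labelled libraries, against 19.4, 17.2 and 18.1 FPKM in WT. Runx1 stood at 12.5, 12.5 and 11.97 FPKM in the knockout-labelled libraries, against 14.5, 12.7 and 13.4 FPKM in WT. Cbfb, the partner subunit of RUNX factors, stood at 47.8, 48.2 and 49.1 FPKM in the knockout-labelled libraries, against 57.9, 53.1 and 51.4 FPKM in WT. In all 4 the groups were apart, where 14.3% of all genes tested were apart in that direction. These 4 genes were chosen after their values were seen, and their adjusted p lay between 0.219 and 0.331 (limma).

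Of 12 genes of granulocyte and monocyte progenitors 11 stood higher, and 0 lower, by unadjusted p at 0.05, and their median log2 difference was 0.43. Fcnb, a ficolin of early granulocytes, stood at 49.5, 50.5 and 57.5 FPKM in the knockout-labelled libraries, against 21.2, 34.7 and 34.5 FPKM in WT. Hp, haptoglobin, stood at 137, 153 and 138 FPKM in the knockout-labelled libraries, against 69.7, 93.3 and 92.3 FPKM in WT. All 7 receptors for myeloid growth factors had a higher mean, 6 of them at an unadjusted p under 0.05, with a median of 0.33. The receptor for G-CSF, Csf3r, was the exception, at 32.3, 36.6 and 44.9 FPKM in the knockout-labelled libraries, against 27.1, 37.4 and 41.6 FPKM in WT.

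Secondary and tertiary granule genes had a median of 0.45, or 0.29 without WT replicate 1, with 6 of 9 higher at an unadjusted p under 0.05. Ltf, lactoferrin, stood at 512, 554 and 574 FPKM in the knockout-labelled libraries, against 356, 454 and 438 FPKM in WT. Cd177, a neutrophil surface protein that presents proteinase 3 in humans, stood at 131, 145 and 128 FPKM in the knockout-labelled libraries, against 77.3, 97.6 and 95.2 FPKM in WT (limma, adjusted p = 0.137). Mature neutrophil genes had a median of 0.30, or 0.14 without WT replicate 1 and 0.19 with quantile normalization, with 3 of 7 higher. Lysosomal proteins that primary granules also hold had a median of 0.20, or 0.12 without WT replicate 1 and 0.13 at a common total, with 4 of 10 tested higher. Hexa, a subunit of hexosaminidase, stood at 45.7, 46.2 and 49.7 FPKM in the knockout-labelled libraries, against 33.4, 39.1 and 39.8 FPKM in WT. No gene of these 3 lists was lower at that threshold, and 2 of the lysosomal and granule list, Bpi and Lyz1, stayed under 0.5 FPKM.

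Genes of granule sorting, assembly and protein folding had a median of 0.09, or 0.02 at a common total, and by unadjusted p at 0.05 there were 6 of 16 higher and 0 lower. Ap3s1, a subunit of the AP-3 sorting adaptor, stood at 26.9, 29.0 and 26.5 FPKM in the knockout-labelled libraries, against 16.7, 20.1 and 19.8 FPKM in WT (limma, adjusted p = 0.114). Its partners in the adaptor did not share this. Ap3b1 stood at 23.7, 23.5 and 22.4 FPKM in the knockout-labelled libraries, against 24.0, 22.6 and 24.7 FPKM in WT. Ap3d1 stood at 24.8, 23.7 and 22.5 FPKM in the knockout-labelled libraries, against 23.5 FPKM in all 3 WT libraries. Of 6 protease inhibitors besides the members, 2 were higher at that threshold and 0 lower, with a median of 0.19, or 0.11 without WT replicate 1. Slpi, a secreted inhibitor of elastase and cathepsin G, stood at 59.8, 59.7 and 59.7 FPKM in the knockout-labelled libraries, against 31.1, 37.5 and 44.4 FPKM in WT (limma, adjusted p = 0.14).

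**Figure D5:**
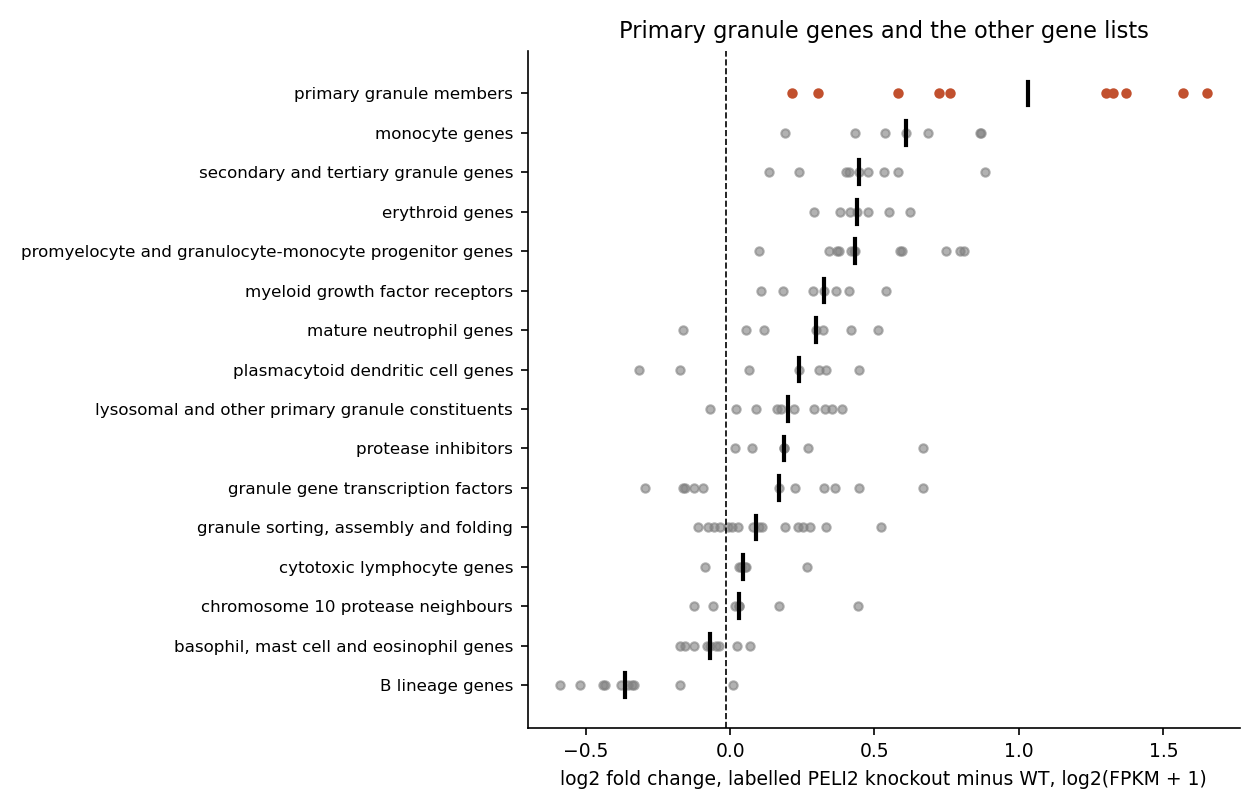
Log2 fold change of every tested gene of each list, knockout-labelled libraries minus WT, on the log2(FPKM + 1) scale; points are genes, black ticks list medians, and the dashed line the median of all genes tested. The primary granule genes reach the highest values, up to 1.65, and the B lineage genes have the lowest median, -0.36.

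Markers of other marrow cells differed in the same libraries, and their part in the values of the primary granule genes was not tested. Of 10 B lineage markers 7 stood lower, and none higher, by unadjusted p at 0.05, and their summed FPKM was 1521 to 1605 in the knockout-labelled libraries, against 1876 to 2239 in WT. Of 7 tested monocyte genes 6 were higher (summed FPKM 183 to 195 in the knockout-labelled libraries, against 107 to 146 in WT), and of 7 erythroid genes 4 were higher (11410.5 to 14441 in the knockout-labelled libraries, against 7746 to 11682 in WT). Of 7 genes of plasmacytoid dendritic cells, 3 were higher (Siglech, Bst2 and Ccr9), and the summed FPKM of the 7 was 1210.5 to 1340.1 in the knockout-labelled libraries, against 1221 to 1450.0 in WT. That sum joins genes of opposite direction, 5 with a higher and 2 with a lower mean. Siglech stood at 109 ± 6.55 FPKM in the knockout-labelled libraries, against 80.1 ± 10.9 FPKM in WT, and Spib at 361 ± 18.3 FPKM, against 454 ± 86.9 FPKM (SD, n = 3 each). Basophil, mast cell and eosinophil genes (9 tested) and cytotoxic lymphocyte genes (6 tested) had 0 genes under that threshold in either direction. The summed FPKM of both lists overlapped, for the first at 1239.9 to 2189 in the knockout-labelled libraries, against 1409 to 1913 in WT, and, for the cytotoxic genes, at 34.9 to 55.1 in the knockout-labelled libraries, against 38.5 to 47.5 in WT. No marker of these lists was at 0 in all 6 libraries, though Tpsb2, a mast cell tryptase chosen after its values were seen, was above 0 only in knockout-labelled replicate 3.

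Neighbouring genes of the proteases were examined next. Prss57, Prtn3 and Elane lie close together on chromosome 10, and Cfd, the next protein-coding gene after Elane and itself a serine protease of the complement system, stood at 0.239, 0.636 and 0.300 FPKM in the knockout-labelled libraries and was listed at 0 in 2 of 3 WT libraries, under the filter. Of 7 tested neighbours on chromosome 10, 2 stood higher and 1 stood lower by unadjusted p at 0.05, and their median of 0.03 changed sign to -0.04 at a common total and to -0.05 without WT replicate 2. Plppr3, which shares 159 exonic bases with Prtn3 on the opposite strand, stood at 10.4, 9.25 and 8.67 FPKM in the knockout-labelled libraries, against 6.72, 6.20 and 7.11 FPKM in WT (limma, adjusted p = 0.14). Strand use is not given in the sources used here, so reads of such overlaps cannot be told apart. Fstl3 shares 1157 of the 2843 exonic bases of Prss57, also on the opposite strand, and stood at 0.993 to 1.03 FPKM in the knockout-labelled libraries, against 0.763 to 1.138 FPKM in WT. Gm11505 shares 512 exonic bases with Mpo and stayed below 0.2 FPKM in each library. Around Ctsg on chromosome 14, 5 of 12 neighbouring genes were analysed and 2 passed the filter, the granzyme Gzmb (3.34, 3.92 and 5.398 FPKM in the knockout-labelled libraries, against 2.32, 3.56 and 4.199 FPKM in WT) and the basophil protease Mcpt8 (14.2, 14.2 and 21.2 FPKM in the knockout-labelled libraries, against 9.90, 30.3 and 15.6 FPKM in WT), with overlapping groups.

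The genes outside the set whose profile over the 6 libraries lay nearest to the median profile of the members, by Euclidean distance of centred log2(FPKM + 1), were Mt1, Olfm4, F13a1, Gatm, Pklr, B4galt6, Hp and Fcnb. Their distances ran from 0.304 for Mt1 to 0.393 for Fcnb, and their correlation with that profile from 0.965 to 0.997 over 6 libraries that all share the difference between the groups. Mt1, a metallothionein, stood at 16.2, 20.1 and 17.9 FPKM in the knockout-labelled libraries, against 7.56, 10.8 and 10.8 FPKM in WT. Olfm4, a protein of neutrophil secondary granules, stood at 15.0, 18.4 and 17.4 FPKM in the knockout-labelled libraries, against 6.33, 11.96 and 8.55 FPKM in WT. Olfm4, Hp, Fcnb and F13a1 belong to lists of myeloid genes, while Pklr is the pyruvate kinase of liver and red cells, at 8.89, 11.5 and 7.94 FPKM in the knockout-labelled libraries, against 3.37, 5.95 and 5.95 FPKM in WT. Adjusted p of these 8 genes lay between 0.131 and 0.171 (limma).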

How the data were processed

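The authors deposited 1 table of FPKM per gene and library; per the submitters' processing notes the tools were RSEM 1.2.12, Bowtie2 2.2.5, HISAT2 2.0.4 and DESeq2 1.4.5, with the build GRCm38.p6 and no role or order given. Per the labels' protocols, mRNA was selected with oligo(dT) and read as single-end reads of 50 bases. The members and lists were chosen with earlier results of these data known.

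FPKM are not counts, so log2(FPKM + 1) was used; the 12953 genes that reached 1 FPKM in 3 or more libraries were fitted with limma 3.58.1 in R 4.3.3 (lmFit, eBayes with a trend, two-sided, Benjamini-Hochberg, threshold 0.05), with no replicate block, and tested on simulated data. Depth was the total that made reads of genes with 1 transcript whole within 0.03 reads; 99.2% to 99.5% of values came out whole. Depth covers counting error only. Positions are those of GENCODE M21. Named were all members, the Pellino genes, the first 4 genes and up to 4 with the smallest p of each list, and the 8 nearest profiles. Alternatives were pseudocounts of 0.1 and 0.5, no filter or 5 FPKM, 3 other scalings, eBayes without a trend, library weights, a replicate block and each library left out. Figures were drawn with matplotlib 3.10.9.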

Additional observations from a re-analysis of the deposited data

How the results depend on the processing

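All 10 primary granule genes kept a higher mean in the libraries labelled PELI2 knockout under each pseudocount, filter and scaling tried. A pseudocount, a filter or a library left out could not change that direction, since the groups of these genes were apart. Their log2 fold changes ran from 1.45 to 1.82 for Ctsg, from 1.16 to 1.48 for Mpo and from 0.14 to 0.25 for Srgn, and the median of the 10 from 0.80 to 1.18 with 1 library left out. The number of genes called among all tested was 3, and it was 6 with eBayes without a trend, 1 with a filter of 5 FPKM, and 2 to 16 with 1 library left out, the 16 without the PELI2_knockout replicate 3. With the replicate number as a block it was 4. Same-numbered libraries deviated together with correlations of 0.101, 0.0362 and 0.0901, not all over 0.1, so the numbers were not taken as pairs, although each library correlated best with its own number, a hint from the data only. Of the 8 genes nearest to the profile of the members, 3 were also nearest to Mpo alone and 0 were nearest once group means were removed. That step takes away the difference between the groups that these genes share. The cause of the changes between settings was not tested. Medians of the neutrophil, lysosomal, transcription factor and inhibitor lists that moved by over 1.5 times stand beside their values in the report, and the median of the chromosome 10 neighbours ran from -0.05 to 0.07. A common total placed the median of all genes at -0.09.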
